A study of Mus musculus with 3 samples.

Results

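Chemokines and their receptors were measured on 3 expression arrays of mouse neurospheres, the floating colonies that neural precursor cells form in culture. A gene was included when a probe set carried its symbol alone and the symbol began with Ccl, Ccr, Cxcl, Cxcr or Ackr and a number, or with Cx3c. This gave 54 of the 22180 genes with a symbol of their own, namely 33 ligands, 17 receptors and 4 atypical receptors. All 3 arrays belong to 1 group, wild-type CD1 mice labelled as postnatal day 8, so there is no contrast between conditions. The source tissue was the V-SVZ (ventricular-subventricular zone), a germinal layer beside the lateral ventricles, taken at day 7 or 8. Single cells at a density of 10 per microlitre grew for 7 days in medium with FGF (10 ng/ml), EGF (20 ng/ml) and heparin (2 µg/ml), a sulfated sugar that binds chemokines. Pups had cultures of their own per the labels, but no source used here ties an array to a pup, so p-values cover only how far these samples differ, and that difference may be technical.

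Chemokines are small secreted proteins that attract cells, and they are sorted by the spacing of their first cysteines into CC, CXC and CX3C ligands. Their receptors pass through the membrane in a bundle of helices and signal through G proteins of the Gi class. Atypical receptors bind chemokines without activating G proteins, and so take them up or carry them. In the brain, CXCL12 with CXCR4 guides migrating precursors and interneurons, while CX3CL1 on neurons is read by CX3CR1 on microglia.

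The reference level of an array was taken to stand for unspecific binding. It was the 95th percentile over 1405 olfactory or vomeronasal receptor probe sets, genes of the nose. Some of these probe sets lie over it by definition, so a signal over the level is not proof of expression. The level was 5.63, 5.53 and 5.71 (log2 signal) on arrays 1, 2 and 3, under the median over all probe sets (5.87, 5.85 and 5.86). A gene was called above this level where the adjusted p of limma's moderated test, run one-sided over all 22180 genes, was under 0.05. A margin is the mean log2 signal minus the reference level, here with limma's 95% interval. That interval rests on a spread shared by genes of like signal. It does not widen for a gene that differed more between arrays, such as Ccl4 or Cx3cr1. As probes bind with different strength, signals of different genes are not ranked against each other.

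Of the 54 genes, 20 were above the reference level (37%), where 59.1% of all genes passed the same test. The median margin was -0.19 for the 54 genes and 0.76 for all genes (log2). By role, 13 of 33 ligands, 4 of 17 receptors and 3 of 4 atypical receptors were above. On each of the 3 arrays, 22 of the 54 genes lay over the level (59.6% of all genes did) and 28 lay under it (36.2% of all genes). The other 4 were over it on some arrays.

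The count depended on where the level was set. With the 90th percentile of the receptors, 28 genes passed (66.7% of all genes did). With the 99th percentile, which was 6.42, 6.09 and 6.69, 8 passed (44.9% of all genes): Cxcr4, Ackr1, Ackr3, Ccl25, Ccl27a, Ccl28, Cxcl14 and Cx3cl1. With other reference genes 7 passed (42.6% of all genes), those 8 without Cx3cl1. Over the 99th percentile on each array lay 10 genes (46.6% of all genes), the 8 with Cx3cr1 and Cxcl10. With each gene's own spread in limma's place, 19 passed after adjustment (57% of all genes) and 20 at an unadjusted p under 0.05 (58.2%). The gene that did not pass was Ccl9 (adjusted p = 0.0541 on its own spread, without limma's moderation).

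**Figure D1:**
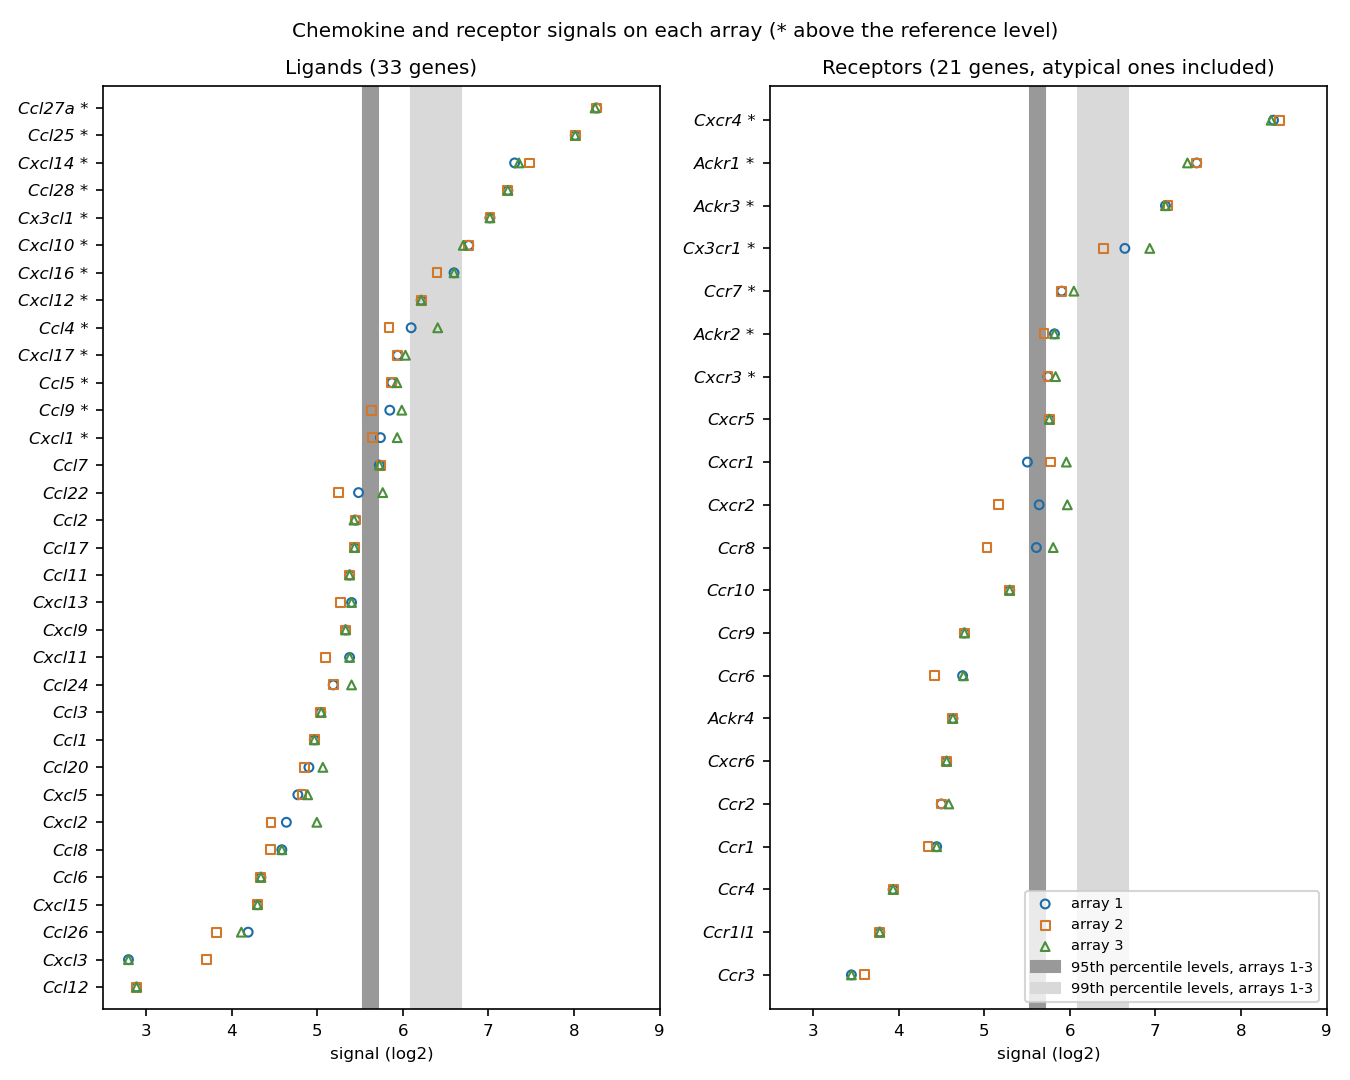
Log2 signal of 33 ligands (left) and 21 receptors with the atypical ones (right), 1 symbol per array, genes ordered by margin. Dark and light grey bands span the 95th and 99th percentile levels of the 3 arrays, and asterisks mark the 20 genes above the reference level. Most not-called genes lie left of the dark band on every array.

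The promoters of Cxcl12, Cxcr4, Ackr3, Cx3cl1 and Cx3cr1 are shown first. These genes belong to ligand and receptor pairs with both sides above the reference level, and other such pairs are not shown. The sequences are from RefSeq (GRCm38.p6) and run over the 250 bases before the annotated start, on the gene's strand, with each CG dinucleotide in capitals. Cxcl12 lies at chr6:117168285-117168534, plus strand, Cxcr4 at chr1:128592300-128592549, minus strand, Ackr3 at chr1:90203730-90203979, plus strand, Cx3cl1 at chr8:94771930-94772179, plus strand and Cx3cr1 at chr9:120068297-120068546, minus strand.
Cxcl12: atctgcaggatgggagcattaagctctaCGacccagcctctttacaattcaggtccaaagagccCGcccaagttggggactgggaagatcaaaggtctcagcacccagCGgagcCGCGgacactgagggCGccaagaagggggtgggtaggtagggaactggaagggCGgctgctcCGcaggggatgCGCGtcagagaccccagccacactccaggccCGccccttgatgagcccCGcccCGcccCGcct
Cxcr4: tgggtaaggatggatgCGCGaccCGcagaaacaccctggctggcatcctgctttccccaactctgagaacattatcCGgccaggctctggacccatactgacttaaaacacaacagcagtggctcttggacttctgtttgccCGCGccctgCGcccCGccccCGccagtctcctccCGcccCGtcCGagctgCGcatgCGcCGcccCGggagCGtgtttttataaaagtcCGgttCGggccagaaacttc
Ackr3: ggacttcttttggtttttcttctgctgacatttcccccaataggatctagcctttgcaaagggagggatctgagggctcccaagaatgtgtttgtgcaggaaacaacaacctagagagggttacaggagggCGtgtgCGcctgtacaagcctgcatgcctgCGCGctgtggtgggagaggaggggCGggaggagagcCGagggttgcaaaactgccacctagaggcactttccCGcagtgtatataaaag
Cx3cl1: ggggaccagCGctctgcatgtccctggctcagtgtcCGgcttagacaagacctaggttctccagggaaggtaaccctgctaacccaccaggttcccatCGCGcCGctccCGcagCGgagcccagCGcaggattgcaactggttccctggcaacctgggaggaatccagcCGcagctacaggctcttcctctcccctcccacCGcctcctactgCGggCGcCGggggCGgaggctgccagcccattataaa
Cx3cr1: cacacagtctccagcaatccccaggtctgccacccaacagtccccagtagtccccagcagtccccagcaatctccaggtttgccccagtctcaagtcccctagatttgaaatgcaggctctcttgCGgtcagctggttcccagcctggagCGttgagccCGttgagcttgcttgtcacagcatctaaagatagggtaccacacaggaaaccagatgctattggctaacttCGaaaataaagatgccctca
There were 14 CG dinucleotides in the Cxcl12 window, 19 in that of Cxcr4, 7 in that of Ackr3, 14 in that of Cx3cl1 and 4 in that of Cx3cr1. The windows of Cxcl10, Cxcr3, Ackr1 and Ackr2, genes of the pairs not shown, held 5, 3, 3 and 2.

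The CXCL12 axis was above the reference level in its ligand, its signalling receptor and its scavenger. Cxcr4, the receptor that guides migrating neural precursors toward CXCL12, had log2 signals of 8.38, 8.45 and 8.35 on arrays 1, 2 and 3. It was over the reference level on each array, with a margin of 2.77 (2.58 to 2.95). Ackr3, which removes CXCL12 from the extracellular space, had 7.12, 7.15 and 7.12, a margin of 1.503 (1.33 to 1.67). Both stayed above with the 99th percentile as the level. Cxcl12 itself had 6.21 on each array, a margin of 0.59 (0.43 to 0.75). It was over the 95th percentile level on each array and under the 99th percentile level of arrays 1 and 3, which were 6.42 and 6.69. Of the promoters shown above, those of Cxcr4 and Ackr3 therefore belong to genes clear of both levels. That of Cxcl12 belongs to a ligand over the lower level on each array and over the higher one on array 2 only.

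The fractalkine pair was above the reference level on both sides. Cx3cl1, a ligand anchored in the membrane by a mucin stalk, had 7.02 on each array, a margin of 1.39 (1.22 to 1.56). Cx3cr1 had 6.64, 6.39 and 6.93, a margin of 1.03 (0.87 to 1.20). It was highest on array 3 and lowest on array 2. Cx3cr1 lay over the 99th percentile levels of 6.42, 6.09 and 6.69 on each array with a margin of 0.26 that did not pass (limma adjusted p = 0.245). Of the 38 measured pairs, this was the only one in which both genes lay over the 99th percentile level on each array.

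Cx3cr1 is known as a microglia gene, and 16 other microglia and macrophage markers were measured. Of these, 4 were above the reference level (25%, against 59.1% of all genes): P2ry12 (6.05 ± 0.16, SD with n = 3, as for all later ± values), C1qa (6.12 on each array), Cd68 (6.43 on each array) and Sall1 (8.85 ± 0.018). Sall1 is also a gene of neural precursors in development. Among the 12 not above were Csf1r (5.55), Aif1 (4.73 ± 0.27), Tmem119 (5.59 ± 0.24), Itgam (4.97), C1qb (5.77 ± 0.070) and C1qc (4.90). The list's lowest mean was 4.27, that of Ptprc. C1qb lay over the level on each array (limma adjusted p = 0.0538) and passed on its own spread. P2ry12 was above by limma's test and did not pass on its own spread. Like Cx3cr1, Aif1 (4.77, 4.44 and 4.97), Tmem119 (5.51, 5.41 and 5.86), Siglech (5.61, 5.40 and 5.98) and Ptprc (4.27, 4.18 and 4.36) were highest on array 3 and lowest on array 2. These were all the markers of the list with 3 different values, and the reference level had the same order. P2ry12 was lowest on array 3 (6.14, 6.14 and 5.86). The list's median signal was 5.50, 5.40 and 5.52 on arrays 1, 2 and 3. In RNA of whole cultures, fewer cells of a type and less RNA per cell cannot be told apart. The part of microglia in the Cx3cr1 signal was not tested.

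**Figure D2:**
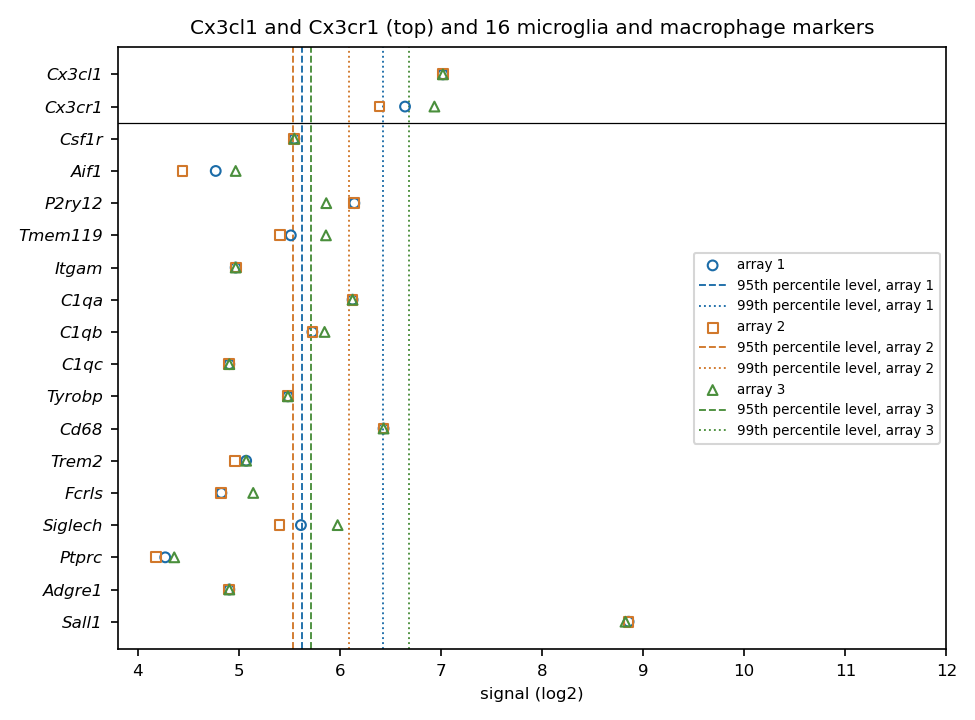
Log2 signal of Cx3cl1 and Cx3cr1 (top) and of 16 microglia and macrophage markers, 1 symbol per array. Dashed and dotted lines give each array's 95th and 99th percentile levels. Cx3cr1 lies right of the dotted line of the same array on all 3 arrays, and of the markers only Sall1 does so.

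Ligands known from skin, gut and thymus were above the reference level without their receptors. Ccl25, which draws T cell precursors into the thymus, had 8.01 on each array, a margin of 2.39 (2.21 to 2.57). Its receptor gene Ccr9 had 4.77 on each array and its atypical receptor Ackr4, a scavenger of homeostatic CC ligands, 4.63 on each array, both under the level. Ccl28, a mucosal ligand, had 7.23 on each array, a margin of 1.60 (1.43 to 1.78). Its receptors Ccr10 (5.30 on each array) and Ccr3 (3.45, 3.61 and 3.45) were under the level.

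Ccl27a, a skin ligand that shares Ccr10 with Ccl28, had 8.27, 8.27 and 8.25, a margin of 2.63 (2.45 to 2.82). Its 2 probe sets disagreed: the other one had 5.31, 5.37 and 5.23 and lay under the level, and the median over both gave a margin of 1.16. The brighter set held values equal on every array to those of 2 probe sets that carry several gene symbols, so that near-identical Ccl27 copies are not separated from Ccl27a here. In RefSeq (GRCm38.p6), Ccl27a also overlaps the interleukin receptor gene Il11ra1, which had no probe set of its own. The source of this signal is uncertain.

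Cxcl14 and Cxcl16 are ligands made by tissue cells. Cxcl14, a CXC ligand with no agreed receptor, had 7.31, 7.48 and 7.36, a margin of 1.76 (1.58 to 1.93). Cxcl16, a second ligand made as a membrane protein, had 6.60, 6.40 and 6.60, a margin of 0.91 (0.75 to 1.07), and its receptor gene Cxcr6 had 4.56 on each array and was under the level. Cxcl17, a mucosal ligand, had 5.94, 5.94 and 6.03, a margin of 0.35 (0.19 to 0.50). Of these 3 ligands only Cxcl14 passed with the 99th percentile as the level.

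The interferon-induced ligands of CXCR3, which recruits activated T cells, were split. Cxcl10 had 6.77, 6.77 and 6.71, a margin of 1.12 (0.96 to 1.29). Its neighbours Cxcl9 (5.33 on each array) and Cxcl11 (5.38, 5.09 and 5.38) were under the level on each array. RefSeq annotates Cxcl11 as a transcribed pseudogene in the C57BL/6J genome, while these mice were CD1. Cxcl10 overlaps Art3, which had 5.10 on each array and was under the level. The receptor gene Cxcr3 had 5.74, 5.74 and 5.83, a margin of 0.15 (-0.00058 to 0.30, limma adjusted p = 0.0432). Its call ended when any 1 array was left out (limma adjusted p = 0.237 without array 1, 0.134 without array 2 and 0.0748 without array 3).

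Inflammatory CC ligands were close to the reference level or under it. Ccl4 had 6.10, 5.84 and 6.41, a margin of 0.49 (0.34 to 0.65). Ccl5 had 5.87, 5.87 and 5.93, a margin of 0.27 (0.12 to 0.42). Ccl9, which signals through CCR1, had 5.85, 5.63 and 5.99, a margin of 0.20 (0.048 to 0.35). CCL5 acts through CCR1 and CCR3, among others. None of the 3 passed with the 99th percentile as the level, and Ccl5 did not pass without array 1 (limma adjusted p = 0.0645). Ccl9 did not pass without array 1 (limma adjusted p = 0.191) or without array 3 (0.0818), nor did Ccl4 pass with 1 level common to all arrays (0.0599). Ccr1, a receptor of Ccl5 and Ccl9, was under the level at 4.45, 4.34 and 4.45. The other 11 CC ligands that lay under the level on each array had means of 2.89 to 5.44. They were Ccl1, Ccl2, Ccl3, Ccl6, Ccl8, Ccl11, Ccl12, Ccl17, Ccl20, Ccl24 and Ccl26, among them the monocyte attractants Ccl2 (5.45, 5.45 and 5.43) and Ccl12 (2.89 on each array).

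Neutrophil-attracting CXC ligands were mostly under the level. Cxcl1 had 5.74, 5.65 and 5.93, a margin of 0.15 (-0.00057 to 0.30, limma adjusted p = 0.0432). Its call ended without array 1 (limma adjusted p = 0.230) and without array 3 (0.197). Its relatives Cxcl2 (4.64, 4.46 and 4.997), Cxcl3 (2.80, 3.71 and 2.80) and Cxcl5 (4.77, 4.82 and 4.89) were under the level on each array. Their shared receptor gene Cxcr2 had 5.64, 5.17 and 5.97, a margin of -0.03 (-0.18 to 0.12), and lay over the level on arrays 1 and 3 and under it on array 2. The lung ligand Cxcl15 and the B cell attractant Cxcl13 were under the level too, the 7 such CXC ligands having means of 3.10 to 5.36.

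Receptors of immune cells were largely not above. Ccr7, which brings T cells and dendritic cells to lymph nodes, had 5.91, 5.91 and 6.05, a margin of 0.33 (0.18 to 0.48). It passed on the 95th percentile level and not on the 99th. Its ligands Ccl19 and Ccl21a shared every probe set with other symbols and were not analysed here. The 8 CC receptors under the level on each array were Ccr1, Ccr1l1, Ccr2, Ccr3, Ccr4, Ccr6, Ccr9 and Ccr10, with means of 3.50 to 5.30.

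Of the atypical receptors, Ackr1 had 7.48, 7.48 and 7.37, a margin of 1.82 (1.64 to 2.00). ACKR1, the Duffy antigen, binds many CC and CXC ligands on red cells and venules. Ackr1 overlaps Cadm3, a neural adhesion gene, in RefSeq (GRCm38.p6). Cadm3 had a mean of 9.003 and lay over the level on each array, and its part in the Ackr1 signal was not tested. Ackr2, which degrades inflammatory CC ligands, had 5.82, 5.70 and 5.82, a margin of 0.16 (0.0053 to 0.31, limma adjusted p = 0.0361), and its call ended when any 1 array was left out (limma adjusted p = 0.312 without array 1, 0.0634 without array 2 and 0.0534 without array 3).

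Near the reference level, Cxcr5 had 5.76 on each array (margin 0.14, limma adjusted p = 0.0643), Ccl7 5.73, 5.75 and 5.73 (margin 0.11, limma adjusted p = 0.130) and Cxcr1 5.50, 5.77 and 5.96 (margin 0.12, limma adjusted p = 0.0964), and none passed. Just under it by mean margin were Cxcr2 at -0.03, Ccl22 at -0.12 (5.48, 5.25 and 5.77) and Ccr8 at -0.14 (5.61, 5.03 and 5.81). Ccl22 and Ccr8 lay over the level on array 3 only.

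Ligands were then matched with receptors over 45 written pairs, of which 38 had both genes measured. Both genes were above the reference level, and over it on each of the 3 arrays, in 6 pairs: Cxcl12 with Cxcr4, Cxcl12 with Ackr3, Cx3cl1 with Cx3cr1, Cxcl10 with Cxcr3, Ccl5 with Ackr1 and Ccl5 with Ackr2. The ligand alone was above in 10 pairs, the receptor alone in 6, and neither in 16. Taken singly, 39.4% of the ligands, 23.5% of the receptors and 75% of the atypical receptors were above, against 59.1% of all genes. Whether the pair counts differ from what these shares alone would give was not tested. Of 30 pairs with signalling receptors, 3 had both genes above and 9 the ligand alone. Of 8 pairs with atypical receptors, 3 had both above and 4 the receptor alone. Not every known ligand was written: Ackr1, which binds many, was paired with Ccl2 and Ccl5 only. The counts hold for the written pairs alone. The count of 6 pairs became 3 without array 1, where Ccl5 and Cxcr3 did not pass, and 4 without array 2 or array 3. With the 99th percentile as the level it was 0, and at that level Cxcr4, Ackr3, Ackr1 and Cx3cl1 passed on their own.

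**Figure D3:**
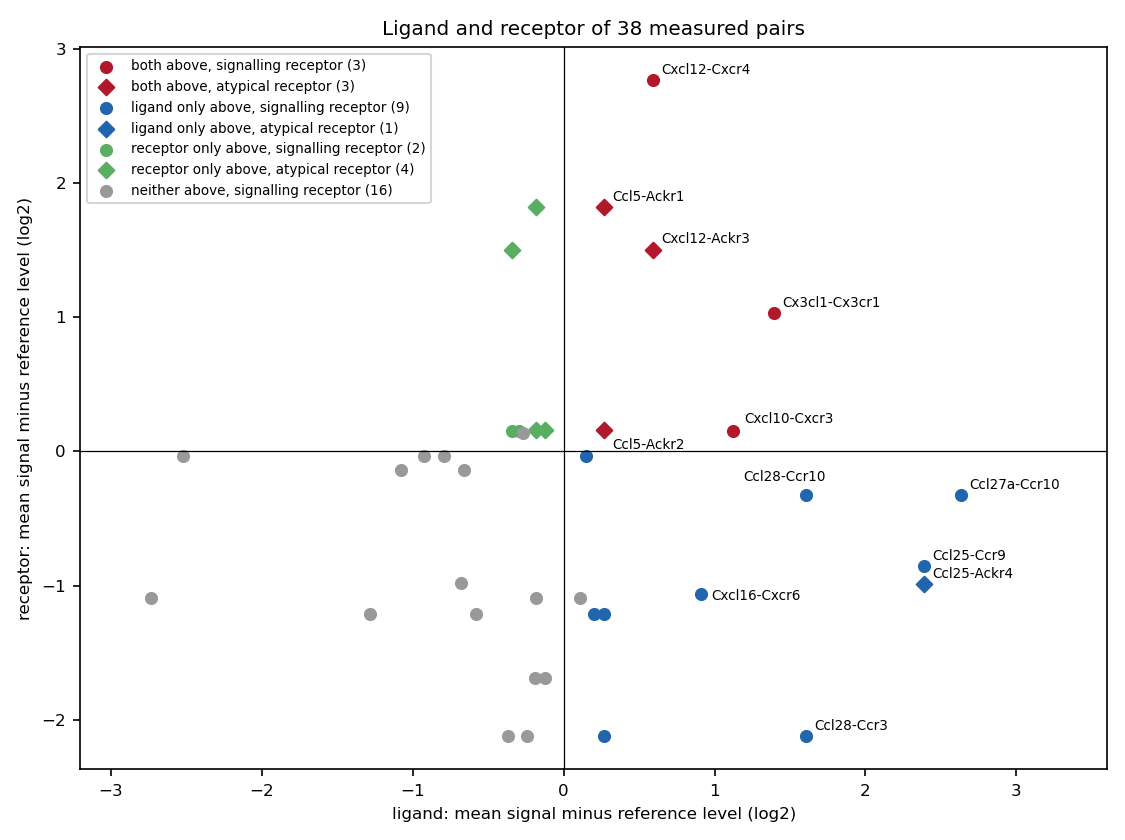
Margin of the ligand (horizontal) against margin of the receptor (vertical) for 38 measured pairs, in log2 units over the reference level, each point 1 pair. The 6 pairs with both genes above lie in the upper right, and Ccl25, Ccl27a and Ccl28 lie to the right with receptors under the level. The pairs share genes and are not independent.

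In RefSeq (GRCm38.p6), Cx3cl1 lies between Ccl22 and Ccl17, and only Cx3cl1 of the 3 was above. The next-door genes Ccl2, Ccl7, Ccl11, Ccl12, Ccl8 and Ccl1 were all not above. In the run of Ccl5, Ccl9, Ccl6, Ccl3 and Ccl4, the genes Ccl5, Ccl9 and Ccl4 were above. Of the receptor genes Cxcr6, Ccr1, Ccr1l1, Ccr3 and Ccr2, none was above. Beside these runs, 37% of the 54 genes and 59.1% of all genes were above. Overlap with another coding gene was annotated for 11 of the 54 genes, 5 of them above the level: Ackr1, Ccl27a, Cxcl10, Cxcl16 and Ccl4. Overlap was not counted over all genes. Ccl4 overlaps Ccl3, which was under the level at 5.04, 5.04 and 5.05, and Cxcl16 overlaps Zmynd15, which had a mean of 5.50 and was under it too.

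Promoter windows were in the RefSeq table for 40 of the 54 genes, 15 of them above the reference level. The median count of CG dinucleotides in the 250 bases was 6 for these 15 and 2 for the 25 not above. Of all array genes with a window, the median was 16 for 10286 genes above and 3 for 6704 not above. At least 10 CG dinucleotides were found in 6 of the 15 windows (40%), those of Ccl25 (45), Cxcr4 (19), Cxcl14 (16), Cxcl12 (14), Cx3cl1 (14) and Cxcl1 (10), and in 0 of the 25. The share was 73.7% of all array genes above and 15.4% of those not above. These counts describe the windows and were not tested.

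**Figure D4:**
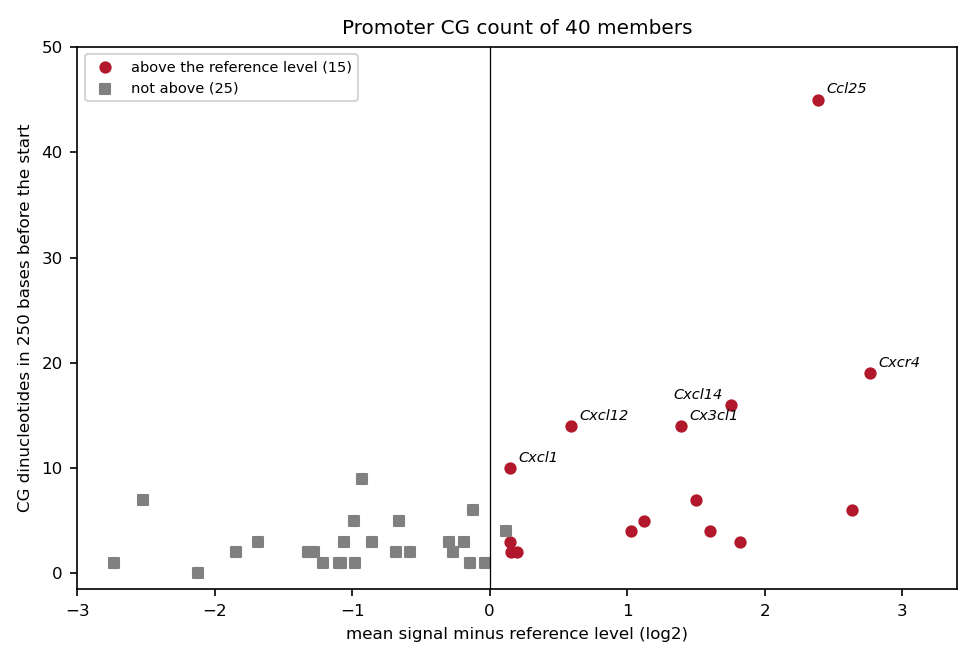
CG dinucleotides in the 250 bases before the start (vertical) against margin over the reference level in log2 units (horizontal) for 40 genes with a promoter window. The 15 genes above the level (circles) include the 6 named ones with at least 10, and the 25 not above (squares) reach 9.

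Motifs of inflammatory control were searched in the same windows on both strands. The NF-kB motif was searched as GGG and TTTCC parted by any 2 bases, the interferon response element as GAAA and GAAA parted by any 2 bases, and the TATA box as TATAAA. The NF-kB letters were in 6 of 40 windows (15%), against 1.40% of 27025 windows in the table. They were in those of Ccl9 and Cxcl1, which were above the reference level, and of Ccl20, Cxcl2, Cxcl3 and Ccr3, which were not. Cxcl1, Cxcl2 and Cxcl3 held the same 10 letters, shown in capitals within stretches at chr5:90891159-90891198, plus strand (Cxcl1), chr5:90903787-90903826, plus strand (Cxcl2) and chr5:90786013-90786052, plus strand (Cxcl3). Interferon response letters were in 2 of 40 windows (5%), those of Cxcl10 and Cxcl14, against 3.04% of the table, and the Cxcl10 stretch lies at chr5:92349078-92349117, minus strand.
Cxcl1: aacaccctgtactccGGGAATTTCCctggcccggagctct
Cxcl2: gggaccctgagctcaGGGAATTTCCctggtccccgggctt
Cxcl3: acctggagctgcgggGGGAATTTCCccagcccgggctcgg
Cxcl10: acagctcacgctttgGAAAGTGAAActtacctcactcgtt
The TATA letters were in 12 of 40 windows (30%), against 13.0% of the table, among them those of Cxcr4, Ackr3 and Cx3cl1. Matches of different motifs overlapped in 0 of the 40 windows.

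Genes that act around chemokine receptors were counted in the same way. Of 22 measured genes of receptor signalling, 16 were above (72.7%, against 59.1% of all genes), including the Gi subunit genes Gnai1 (10.12 ± 0.12), Gnai2 (11.84) and Gnai3 (10.39 ± 0.028), Gnb1 (13.11 ± 0.046), Gng2 (8.61 ± 0.010) and the arrestin gene Arrb1 (9.31). The 6 not above were Pik3cg (5.06), Plcb2 (5.67), Dock2 (4.22), Vav1 (5.20), Ptk2b (5.41) and Rgs1 (4.22). Of 16 genes that shed, trim or bind chemokines, 14 were above (87.5%, against the same 59.1%), among them Adam10 (10.54) and Adam17 (9.64 ± 0.074), the proteases that release CX3CL1 and CXCL16 from the membrane, Mmp2 (7.66 ± 0.037), Hmgb1 (11.32), which binds CXCL12, Mif (10.55 ± 0.028), a cytokine that also binds CXCR4, and the heparan sulfate polymerase gene Ext1 (9.16 ± 0.12). Dpp4 (4.32), which cuts CXCL12 at its start, and Mmp9 (5.58 ± 0.10) were not.

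Of 21 genes of NF-kB and its inducers, 15 were above (71.4%, against 59.1% of all genes), including Nfkb2 (7.12 ± 0.098), Rela (10.12), Relb (6.29), Rel (7.86 ± 0.13), the inhibitor gene Nfkbia (9.44) and Ikbkb (8.65 ± 0.052). The 6 not above were the cytokine genes Tnf (5.42), Il1b (4.10 ± 0.11), Ifng (5.61 ± 0.20), Il6 (3.59) and Il17a (4.59 ± 0.072) and the lipopolysaccharide receptor gene Tlr4 (4.85). None of the 7 measured relatives outside the name rule passed limma's test, adjusted or at an unadjusted p under 0.05, nor the test on their own spread: Pf4 (4.43 ± 0.013), Ppbp (4.54), Xcl1 (4.82 ± 0.35), Xcr1 (4.87 ± 0.47), Ccrl2 (5.05), Gpr182 (5.30 ± 0.13) and Cmklr1 (4.55).

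Markers of cells that carry chemokine receptors were measured beside these genes. All 13 measured neural precursor markers were above the reference level (100%, against 59.1% of all genes), such as Sox2 (11.39 ± 0.073), Nes (8.50 ± 0.035) and Olig2 (11.37). Of 15 lymphocyte and neutrophil markers 1 was above (6.67%, against the same 59.1%), Nkg7 (6.11 ± 0.23), while Cd3e (5.06 ± 0.22), Cd3d (4.94), Cd3g (4.16), Cd4 (5.03 ± 0.44), Cd8a (5.31 ± 0.040) and Cd79a (5.19) were not. Of 15 endothelial markers 3 were above (20%, against the same 59.1%), Kdr (6.84 ± 0.064), Sox17 (5.87 ± 0.20) and Egfl7 (5.83 ± 0.011), and Pecam1 (5.30), Cdh5 (5.48 ± 0.058) and Cldn5 (5.11) were not. This count was 1 without array 1. Of 14 mural and fibroblast markers 6 were above (42.9%, against the same 59.1%): Pdgfrb (6.99 ± 0.11), Rgs5 (7.25 ± 0.12), Acta2 (7.45), Tagln (5.82), Col1a1 (6.24) and Col1a2 (6.05 ± 0.10). Among the 8 not above were Kcnj8 (4.89 ± 0.28), Abcc9 (5.72 ± 0.054), Dcn (4.70), Lum (4.00 ± 0.051), Col3a1 (5.38 ± 0.13) and Anpep (5.23 ± 0.15). Sox17 and Tagln were above by limma's test and did not pass on their own spread. The part of these cells in the chemokine signals was not tested.

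The 3 arrays differed little in most of the 54 genes. Values were identical on all 3 arrays for 18 genes (33.3%, against 39.4% of all genes), and on at least a pair of arrays for 39 of the 54 genes and 16646 of the 22180. What made these values equal is not given in the files or labels. An SD of 0 therefore cannot be read as a true spread, and intervals and p-values that rest on the spread between arrays may be too small. The range over arrays exceeded 0.5 log2 units in 7 genes (13%, against 5.31% of all genes): Cxcl3 (0.91), Cxcr2 (0.81), Ccr8 (0.77), Ccl4 (0.57), Cx3cr1 (0.54), Cxcl2 (0.54) and Ccl22 (0.51). Of the 15 genes with 3 different values, 12 were highest on array 3 and 11 were lowest on array 2. The reference level was also highest on array 3 and lowest on array 2. Among all genes not above the level with 3 different values, 70.8% were highest on array 3 and 70.5% lowest on array 2, and among those above it 18.7% and 19%.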

How the data were processed

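Expression was measured on 3 arrays of V-SVZ neurospheres. The authors deposited a log2 signal for each of 41345 probe sets. Per the submitters' processing notes these are RMA values, and no version or genome build was given there. The platform's annotation gave 23521 probe sets 1 gene symbol, 1814 several and 16010 none. Only single symbols were used, and of several probe sets of a gene the one with the highest mean. Margins over the reference level were fitted on all 22180 genes with limma 3.58.1 in R 4.3.3 (intercept, intensity trend, Benjamini-Hochberg). The prior degrees of freedom were infinite, so genes of like signal shared 1 spread. Signals are log2 mean ± SD, and 3 arrays limit the precision.

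All called genes, their pair partners and genes next to the level were named with values, and of each list up to 6 above and 6 not. The members, lists and pairs were chosen with earlier results of these data known. Gene neighbours and promoters came from RefSeq (GRCm38.p6) and were handled with Python 3.11.15 and pandas 2.3.3, figures with matplotlib 3.10.9. Alternatives changed the reference level, probe set choice, scaling, model, filter and arrays used.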

Additional observations from a re-analysis of the deposited data

Results flagged for a closer look

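Signals over the reference level were found in 33 probe sets that carry several gene symbols and were left out of the comparisons above. All 13 probe sets of the Ccl19 copies lay over the level on each array, with means of 6.502 to 8.07 (59.6% of all genes with 1 symbol lay over it). So did all 9 probe sets of the Ccl21 copies, with means of 6.39 to 6.63, and all 11 of the Ccl27 copies, with means of 7.70 to 9.43. Over the 99th percentile level on each array lay 12, 5 and 11 of them (46.6% of all genes with 1 symbol). Several of these probe sets held the same values on every array, such as 6.59, 6.45 and 6.84 for Ccl21 copies. The counts are therefore not of separate signals. Each of these sets names 5 to 10 genes, so that no signal can be given to 1 gene. CCL19 and CCL21 are the ligands of CCR7.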

How the results depend on the processing

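The choice of level moved the counts most. With the 90th percentile of the receptors (66.7% of all genes above), 8 receptors, 9 microglia, 3 lymphocyte or neutrophil and 6 endothelial markers were above. With the 99th percentile (44.9% of all genes above), 8 of the 54 genes, 5 ligands, 1 receptor and 0 pairs were, and 1 microglia, 0 lymphocyte or neutrophil, 0 endothelial and 3 mural markers. With keratin-associated, defensin and bitter taste receptor genes (144 probe sets) as the reference (42.6% of all genes above), these were 7, 4, 1 and 0, and 1, 0, 0 and 2. That level was higher, at 6.53, 6.15 and 6.86 on arrays 1, 2 and 3. With dim genes left out, 11 genes, 7 ligands, 2 receptors and 1 pair were left and above, with 2, 0, 1 and 3 markers. All 11090 genes left by that filter were above, so these counts only say what it left. Leaving out 1 array gave 15 to 18 genes, 10 to 13 ligands, 3 receptors, 2 atypical receptors, 3 to 4 pairs and 1 to 3 endothelial markers. Of all 22180 genes, 12504 to 13023 were then above.

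Margins that changed sign with the 99th percentile were Ackr2 (-0.62), Ccl4 (-0.28), Ccl5 (-0.51), Ccl7 (-0.67), Ccl9 (-0.58), Ccr7 (-0.45), Cxcl1 (-0.63), Cxcl12 (-0.19), Cxcl17 (-0.43), Cxcr1 (-0.65), Cxcr3 (-0.63) and Cxcr5 (-0.64). With the other reference genes they were Ackr2 (-0.73), Ccl4 (-0.40), Ccl5 (-0.62), Ccl7 (-0.78), Ccl9 (-0.69), Ccr7 (-0.56), Cxcl1 (-0.74), Cxcl12 (-0.30), Cxcl17 (-0.54), Cxcr1 (-0.77), Cxcr3 (-0.74) and Cxcr5 (-0.75). With the 90th percentile they were Ccl11 (0.11), Ccl17 (0.17), Ccl2 (0.17), Ccl22 (0.23), Ccr10 (0.032), Ccr8 (0.22), Cxcl11 (0.018), Cxcl13 (0.091), Cxcl9 (0.066) and Cxcr2 (0.33). Leaving out 1 array, Ccr8 ranged from -0.26 to 0.038 and Cxcr2 from -0.18 to 0.14, both positive without array 2 only. The level itself moves in these settings; no other cause was tested. One common level for all arrays, chosen after the data were seen, ended the calls of 3 genes (Ccl4, Ccl9 and Cxcl1) and made those of 2 (Ccl7 and Cxcr5). Without limma's intensity trend, 17 genes and 4 pairs were above, with 13036 of all 22180 genes. The calls of Ackr2, Cxcl1 and Cxcr3 ended there. Under all 12 alternatives Ackr1, Ackr3, Ccl25, Ccl27a, Ccl28, Cxcl14 and Cxcr4 kept their calls. The margin of Ccl27a was 1.16 with the median over its probe sets, in place of 2.63. Cx3cl1 lost its call only with the other reference genes (margin 0.50, limma adjusted p = 0.069). No paired analysis was possible because there is only 1 group.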
